A study of Drosophila melanogaster with 66 samples.

Results

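The Polycomb and trithorax group genes examined here were Pc, ph-p, ph-d, Psc, Sce, E(z), esc, Su(z)12, trx and ash1, followed from egg laying to 10 hours of development in Drosophila melanogaster. The members were the probe sets whose gene symbol in the array annotation was 1 of these 10 names, and 7 genes of the 11982 with a probe set of their own met this rule. They were the PRC1 genes Pc (1636721_at), Psc (1631095_at) and Sce (1627898_at), the PRC2 genes E(z) (1626696_at), esc (1623519_at) and Su(z)12 (1623952_a_at), and trx (1624533_s_at), with 1 probe set each. No probe set carried the symbol ph-p, ph-d or ash1, so ph-d and ash1 were not analysed here. The probe set 1623441_at, without an entry in the array annotation, is paired with ph-p in the gene annotation of the study. That pairing stands in a list the study chose from these same arrays by change of polysome profile, so the values of ph-p are given apart, outside every count, and are a description.

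Polycomb and trithorax proteins keep the memory of gene activity through cell divisions. Polycomb repressive complex 1 (PRC1) compacts chromatin and ubiquitinates histone H2A, Polycomb repressive complex 2 (PRC2) methylates histone H3 on the lysine that marks silenced genes, and trithorax proteins oppose them at active genes. In the fly embryo the homeotic genes are the classical targets of both groups, and the mother supplies mRNA of many Polycomb genes to the egg.

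Whole wild-type Canton S embryos were collected over 2-hour intervals and aged to 0-2 h, 4-6 h or 8-10 h. Extracts made in cycloheximide, which holds ribosomes on mRNA, were sedimented through sucrose gradients of 12 fractions, and RNA was measured on 66 arrays. Each period had 1 gradient with EDTA, which strips magnesium and takes ribosomes off mRNA, read as 4 pools (fractions 1-5, 6-7, 8-9 and 10-12), 2 gradients without EDTA of 8 arrays (1 for fractions 1-5 pooled and 1 for each later fraction), and 2 arrays of unfractionated RNA without EDTA. Each sample was RNA of pooled whole embryos, so a change in one cell type and a change in all cells cannot be told apart.

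Values are log2 signals normalized by the authors, and levels of different probe sets are not set against each other. The number of arrays limits the precision: 2 against 2 cannot give a two-sided exact permutation p below 0.333, so differences were tested with limma over 10358 probe sets above a signal filter, with Benjamini-Hochberg adjustment and a threshold of 0.05. All 7 members passed that filter. Marker medians followed the labelled ages, with a median log2 signal of 3 maternal mRNAs of 11.79, 7.19 and 7.46 and of 2 mRNAs of neurons and glia of 4.80, 7.16 and 10.05 at 0-2, 4-6 and 8-10 h. Single markers did so less evenly. The maternal gcl rose from 8.91 at 4-6 h to 10.03 at 8-10 h, and the glial repo had 4.30, 4.79 and 8.81. Of 4 cellularization mRNAs (median 7.04, 5.72 and 5.04), Sry-alpha was higher at 4-6 h (8.72) than at 0-2 h (7.72). Markers of adult sense organs stayed between 3.21 and 5.27.

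In unfractionated RNA the PRC2 mRNAs were lower at 8-10 h than before, while the PRC1 mRNA Psc was lower at 0-2 h than afterwards. For Psc the periods lay closer together in the gradients, as given below. Between 4-6 h and 8-10 h, E(z), esc and Su(z)12 all fell, by 2.83, 2.92 and 2.27 times. Psc, which encodes a RING finger partner of Sce in PRC1, was 7.08 times higher at 4-6 h than at 0-2 h. With all arrays and no replicate block, Pc and Sce passed no test of abundance in the 3 comparisons of periods.

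Psc had log2 signals of 6.78 and 5.57 at 0-2 h, 9.02 and 8.98 at 4-6 h and 8.71 and 8.53 at 8-10 h. Both arrays of 0-2 h lay below all 4 later arrays, and Psc rose by 4-6 h (log2 difference 2.82, SE 0.39, limma adjusted p = 0.00256) and was higher at 8-10 h than at 0-2 h (2.44, limma adjusted p = 0.00389). The Polycomb protein Pc, which binds the methylated histone through its chromodomain, had mRNA signals of 9.17 and 8.63, 8.94 and 8.53, and 8.33 and 8.16 over the same periods. The Pc arrays of 0-2 and 4-6 h overlapped, and both arrays of 8-10 h lay below them. The difference of 8-10 h minus 0-2 h was -0.66 with an adjusted p of 0.0705 by limma, and 0.0219 when the replicate number, which links the unfractionated arrays, was a block (-0.92 and 0.0239 without array 2 of 0-2 h). Sce, the RING finger ubiquitin ligase of PRC1, had 8.89 and 10.15 at 0-2 h, 9.45 and 9.53 at 4-6 h and 9.06 and 9.05 at 8-10 h. The arrays of 0-2 h spanned all the others, and the sign of the difference 4-6 h minus 0-2 h turned with the array left out: it was -0.66 without array 1 of 0-2 h (limma adjusted p = 0.0096) and 0.60 without array 2 (0.0142). Sce was also called lower at 8-10 h than at 4-6 h without either array of 0-2 h (-0.43, adjusted p 0.0265), and lower than at 0-2 h without array 1 of 0-2 h (-1.09, 0.0021).

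E(z), the histone methyltransferase of PRC2, had log2 signals of 9.28 and 9.47 at 0-2 h, 9.57 and 9.50 at 4-6 h and 8.09 and 7.98 at 8-10 h. The 2 late arrays lay below the other 4 by more than 1 log2 unit, and E(z) fell between 4-6 and 8-10 h (log2 difference -1.50, SE 0.14, limma adjusted p = 0.00229). esc, the WD40 protein through which PRC2 reads the methyl mark, had 10.35 and 10.61, then 9.93 and 9.89, then 8.39 and 8.33. Its arrays did not overlap between any periods. It fell by 0.57 between 0-2 and 4-6 h (limma adjusted p = 0.024) and by 1.55 between 4-6 and 8-10 h (limma adjusted p = 0.00229), but the first call was lost without any 1 array of 4-6 or 8-10 h (adjusted p 0.0627 to 0.116). Su(z)12, a zinc finger subunit that PRC2 needs for its activity, had 9.93 and 9.79, then 10.30 and 10.19, then 9.14 and 8.98. It was highest at 4-6 h and lowest at 8-10 h with no overlap, the difference 4-6 h minus 0-2 h was not called (0.38, limma adjusted p = 0.0768, and 0.45 with 0.0495 without array 1 of 0-2 h), and it then fell by 1.18 (limma adjusted p = 0.00409). Its difference of 8-10 h minus 0-2 h was -0.80 (limma adjusted p = 0.00606), and -0.72 with an adjusted p of 0.0533 without array 2 of 8-10 h.

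trx, the histone methyltransferase that gives the trithorax group its name, had log2 signals of 7.47 and 4.40 at 0-2 h, 8.67 and 7.90 at 4-6 h and 8.84 and 8.33 at 8-10 h. All 4 later arrays were higher than both arrays of 0-2 h, which were about 3 log2 units apart. With that spread trx passed no test (4-6 h minus 0-2 h 2.35, SE 0.98, limma adjusted p = 0.1), while with the replicate number as a block its adjusted p was 0.0316 at 4-6 h and 0.0201 at 8-10 h. Without array 1 of 0-2 h the differences were 3.89 (adjusted p 0.00218) and 4.19 (0.00163). The probe set paired with ph-p, a PRC1 subunit with a SAM domain, had 5.55 and 4.55 at 0-2 h, 9.86 and 9.52 at 4-6 h and 9.91 and 9.80 at 8-10 h.

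Array 1 of 0-2 h was the higher of the pair for Psc, trx and ph-p, and also for nullo (6.87 against 5.87) and Sry-alpha (8.21 against 7.23), which are transcribed at cellularization; 2 other genes of that time, slam (9.73 and 9.64) and bnk (4.50 and 4.58), were nearly level, and the part of such a difference between the 2 collections in these results was not tested. For Psc and trx the periods lay closer together in the gradients than in unfractionated RNA. In the pool of fractions 1-5, Psc had log2 signals of 8.75 and 9.99 at 0-2 h and 10.04 and 10.43 at 4-6 h. trx had 8.71 and 9.55 at 0-2 h and 9.49 and 9.69 at 4-6 h in that pool, where the 4.40 of unfractionated array 2 had no counterpart. ph-p was low at 0-2 h in both kinds of RNA (5.69 and 5.65 in the pool, against 10.01 and 10.11 at 4-6 h).

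**Figure D1:**
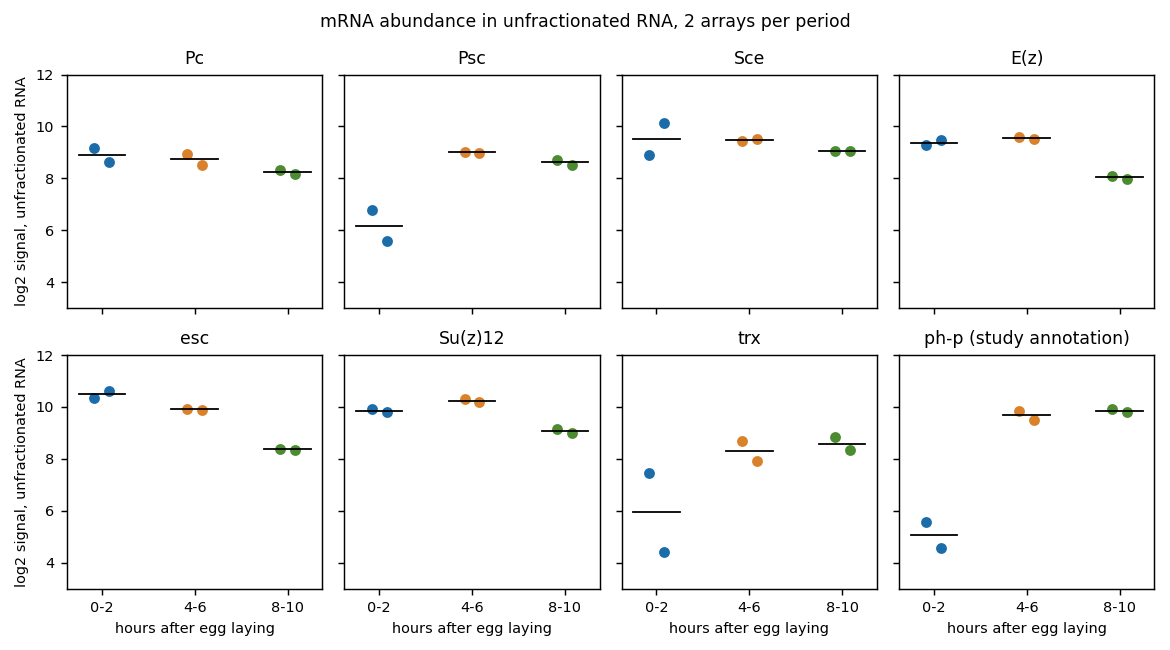
Log2 signal in unfractionated RNA (y axis) by hours after egg laying (x axis) for the 7 members and ph-p. Points are the 2 arrays of a period and the bar is their mean; esc falls from period to period, E(z) and Su(z)12 are lowest at 8-10 h, and the 2 arrays of 0-2 h are far apart for trx, Psc and Sce.

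Calls in abundance were frequent over all probe sets. At 4-6 h against 0-2 h, 1 of 7 members was higher and 1 lower, where 25.9% and 24.6% of the 10358 probe sets were called higher and lower. At 8-10 h against 4-6 h none of the 7 was higher and 3 were lower, where 16.2% and 14.1% of probe sets were. At 8-10 h against 0-2 h, 1 was higher and 3 were lower, beside 27.2% and 27.1%.

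Fractions 6-12 are taken as polysomal, and the part of an mRNA's summed signal that lies there, in percent, is its ribosomal occupancy. The pool stands for 5 fractions and was weighted as such. The Logit is the natural log of the polysomal over the non-polysomal share. Arrays were scaled to each other, so an mRNA spread evenly over all fractions has an occupancy of 58.3%, and each value places an mRNA relative to the other mRNAs. At 0-2 h Pc and the 3 PRC2 mRNAs lay mostly in the light, non-polysomal part of the gradient. At 4-6 h each of them, and Sce, had a larger share of its signal in fractions 6-12. Where mRNA levels fall, the study proposes that such a rise may reflect the loss of excess maternal mRNA, which was not tested here. Psc and trx passed no test of the Logit.

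Pc had an occupancy of 27.7% and 27.4% in the 2 gradients of 0-2 h, 56.8% and 53.8% at 4-6 h and 57.5% and 55.7% at 8-10 h. Both early gradients lay far below the later 4, and the Logit of Pc rose by 1.18 between 0-2 and 4-6 h (SE 0.17, limma adjusted p = 4.13e-05). Its occupancy at 4-6 and 8-10 h was still below the 58.3% of an even spread. At 0-2 h no single fraction of 6-12 held more than 6.18% of Pc mRNA, while fraction 10 held 10.9% and 14.6% at 4-6 h and 17.9% and 12.5% at 8-10 h. Sce had 59.0% and 68.6% at 0-2 h, at and above an even spread, and reached 88.3% and 89.2% at 4-6 h and 85.2% and 88.0% at 8-10 h. No gradient of 0-2 h overlapped a later one, and its Logit rose by 1.49 (SE 0.19, limma adjusted p = 1.36e-05). Fractions 8-10 held 50.7% ± 9.9 of Sce mRNA at 4-6 h and 56.3% ± 4.3 at 8-10 h (SD, n = 2). Psc had 68.2% and 55.4%, then 59.1% and 55.2%, then 52.4% and 66.9%, so its gradients overlapped between all periods (Logit difference 4-6 h minus 0-2 h -0.20, limma adjusted p = 0.511). Its mRNA had a shoulder at each end of the polysomal part, with 11.5% and 9.8% in fraction 6 and 13.8% and 10.7% in fraction 12 at 0-2 h.

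E(z) had an occupancy of 47.2% and 43.7% at 0-2 h, 85.2% and 82.7% at 4-6 h and 69.0% and 79.4% at 8-10 h. The periods did not overlap, and the Logit rose by 1.84 between 0-2 and 4-6 h (SE 0.20, limma adjusted p = 3.52e-06), the greatest difference among the 7 members. The later difference of -0.58 was not called (limma adjusted p = 0.114, and 0.0354 with a difference of -0.86 without gradient 2 of 8-10 h). esc had 30.4% and 29.5%, then 60.9% and 58.0%, then 52.2% and 56.7%. Its 2 early gradients were the lowest and the Logit rose by 1.23 (SE 0.18, limma adjusted p = 3.27e-05), but at 4-6 h its occupancy was close to that of an even spread. Su(z)12 had 40.4% and 30.3%, then 67.0% and 70.6%, then 61.0% and 68.3%. Both early gradients were below all later ones, and its Logit rose by 1.40 (SE 0.20, limma adjusted p = 3.16e-05).

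trx had an occupancy of 54.3% and 38.9% at 0-2 h, 62.1% and 51.5% at 4-6 h and 54.3% and 61.5% at 8-10 h. The gradients overlapped, and the Logit difference 4-6 h minus 0-2 h was 0.42 (SE 0.22, limma adjusted p = 0.146). It was 0.73 with an adjusted p of 0.0281 without gradient 1 of 0-2 h, and 0.83 with 0.00832 when fractions 6 and 7 counted as non-polysomal. At 0-2 h fraction 6 alone held 19.6% and 17.1% of trx mRNA, more than any of fractions 7 to 12. The probe set paired with ph-p ran the other way, with 82.7% and 75.0% at 0-2 h, 65.2% and 60.4% at 4-6 h and 61.7% and 64.7% at 8-10 h. The Logit difference of ph-p (4-6 h minus 0-2 h) was -0.81. It is given without a p-value, since the pairing comes from a list chosen by such a change in these same arrays. Its signal at 0-2 h was low, as given above.

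**Figure D2:**
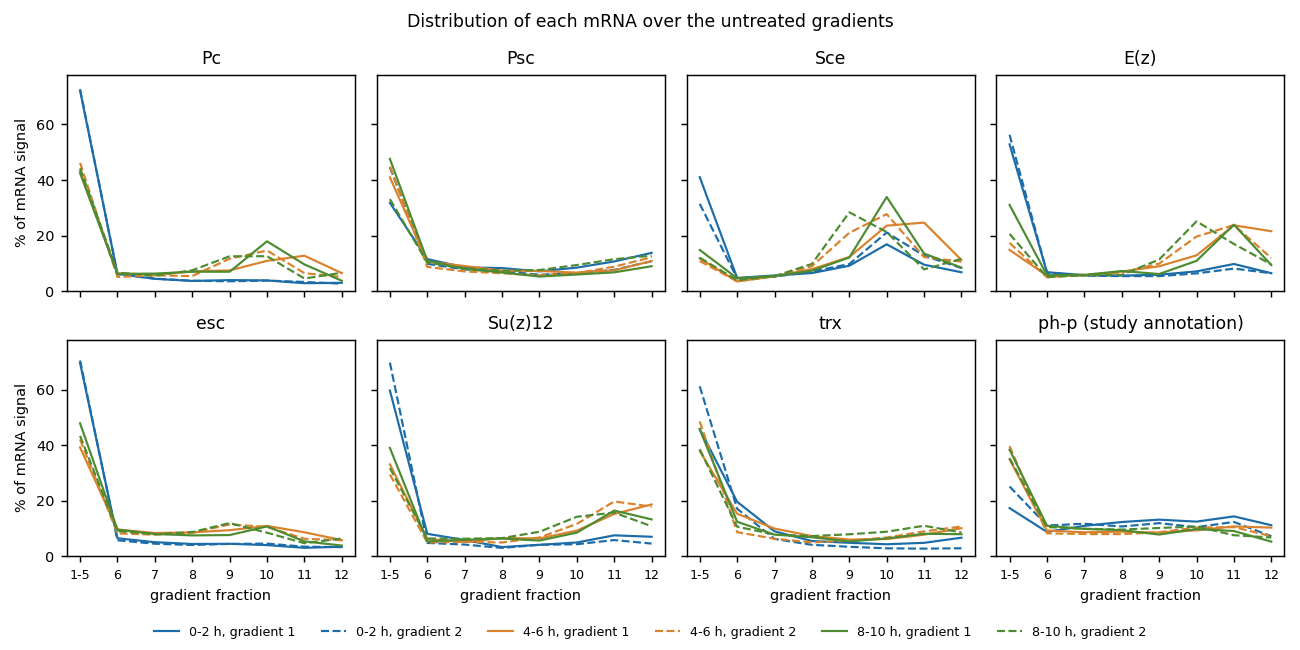
Percentage of each mRNA's signal (y axis) in the pool of fractions 1-5 and in fractions 6 to 12 (x axis) of the untreated gradients, coloured by period, with gradient 1 solid and gradient 2 dashed. At 0-2 h the pool holds 72.3% and 72.6% of Pc mRNA, and at 4-6 and 8-10 h the mRNAs of Sce, E(z) and Su(z)12 form peaks in fractions 9 to 12.

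In all, 5 of 7 members had a higher Logit at 4-6 h than at 0-2 h and none a lower one, where 26.3% of all probe sets were higher and 19.7% lower. The median Logit difference was 1.23 over the members and -0.01 over all probe sets tested. The count was 5 or 6 whichever gradient was left out. Between 4-6 and 8-10 h none of the 7 was called in either direction (3.48% of probe sets higher, 2.78% lower; 1 member at an unadjusted limma p below 0.05), and at 8-10 h against 0-2 h 5 of 7 were higher and none lower, where 28.7% and 20.8% of probe sets were. Those 5 were again Pc, Sce, E(z), esc and Su(z)12, in a comparison that shares the 0-2 h gradients with the first.

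Classes were set with limits taken from the study's methods, which leave the base of the log and the scale of the SD open; here the natural log Logit of the mean profile and the SD of its 8 log2 values were used, without a filter on EDTA release. The preferentially translated class asks that the Logit exceed 1.5 and the SD 0.5, and the preferentially untranslated class that they stay under -0.15 and 1. At 0-2 h Pc, E(z), esc and Su(z)12 were in the untranslated class, 4 of 7 members, which held 18.7% of the probe sets above the median signal. At 4-6 h Sce and E(z) were in the translated class (6.28% of probe sets) and at 8-10 h Sce alone (5.53%). E(z) thus went between the 2 classes, with a mean Logit of -0.18 at 0-2 h, 1.66 at 4-6 h and 1.08 at 8-10 h. The 0-2 h value of E(z) lies close to the limit of -0.15, and its first gradient alone gave -0.11. The classes depend on how fractions are counted. With the pool counted once, 0 of 7 members were untranslated at 0-2 h and 1, 3 and 3 were translated at 0-2, 4-6 and 8-10 h. With fractions 6 and 7 as non-polysomal, 6, 4 and 4 were untranslated and none was translated. Counting the pool once raises the Logit of every mRNA by the same amount, and moving fractions 6 and 7 lowers it for every mRNA. The shares of all probe sets under these 2 settings are not given, so the counts show the effect of the limits and not a trait of the members.

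Within fractions 6-12 the signal of 5 members, Pc, Sce, E(z), Su(z)12 and trx, also shifted towards the heavy end between 0-2 and 4-6 h. The measure is the natural log of the share in fractions 11-12 over that in fractions 6-7. It leaves out the pool of fractions 1-5 but comes from the same gradients. In fractions 6 and 7 the study could not tell translating mRNA from mRNA-protein complexes that contain ribosomes. Its density estimate left out these fractions and fraction 12. The ratio thus does not separate a move among polysomes from a change in such complexes. E(z) had 0.26 and 0.18 at 0-2 h, 1.40 and 1.19 at 4-6 h and 1.06 and 0.91 at 8-10 h, with all periods apart. It rose by 1.07 between 0-2 and 4-6 h (limma adjusted p = 0.00067), and fractions 11-12 held 40.4% ± 6.8 of E(z) mRNA at 4-6 h, against 15.3% ± 1.2 at 0-2 h (SD, n = 2). Su(z)12 had 0.04 and 0.15, then 1.10 and 1.32, then 0.98 and 0.74. It rose by 1.12 (limma adjusted p = 0.000668), with 35.6% ± 2.6 of its mRNA in fractions 11-12 at 4-6 h and 12.3% ± 2.9 at 0-2 h.

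trx had heavy over light values of -0.92 and -1.45 at 0-2 h, -0.35 and 0.28 at 4-6 h and -0.23 and 0.06 at 8-10 h. Every later gradient was above both early ones, and trx rose by 1.15 (limma adjusted p = 0.00375), although its Logit was not called. Without gradient 2 of 0-2 h or of 4-6 h its adjusted p was 0.0743 and 0.056 in that order. Pc had -0.60 and -0.58, then 0.45 and 0.07, then 0.07 and -0.09. It rose by 0.85 by 4-6 h (limma adjusted p = 0.00398). Sce had 0.45 and 0.77, then 1.41 and 0.95, then 0.79 and 0.74, and its rise of 0.57 by 4-6 h (limma adjusted p = 0.0458) was lost without either gradient of 0-2 h or gradient 1 of 4-6 h (adjusted p 0.092 to 0.34), with no signal filter (0.0762), with arrays centred on their median (0.0515) and with fractions 10-12 set over 6-8 (0.251). esc had -0.59 and -0.43, then -0.22 and -0.29, then -0.65 and -0.43, and Psc lay between -0.19 and 0.29 in every gradient. Neither esc nor Psc was called, so esc differed in its share on polysomes without a tested difference in its place among them.

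The measure was higher at 4-6 h than at 0-2 h for 5 of 7 members and lower for none, where 13.5% and 9.32% of probe sets were. At 8-10 h against 0-2 h it was higher for 4 of 7, Pc, E(z), Su(z)12 and trx (18.5% of probe sets higher, 13.7% lower), and of these the calls of Pc, Su(z)12 and trx were lost on leaving out a gradient of 0-2 h (adjusted p 0.112 and 0.134 for Pc without gradient 2 and 1, 0.0548 for Su(z)12 without gradient 1, 0.0602 for trx without gradient 2), and that of Pc also without gradient 1 of 8-10 h (0.091). Between 4-6 and 8-10 h none of the 7 was called (5.74% of probe sets higher, 2.64% lower; 1 member at an unadjusted limma p below 0.05).

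**Figure D3:**
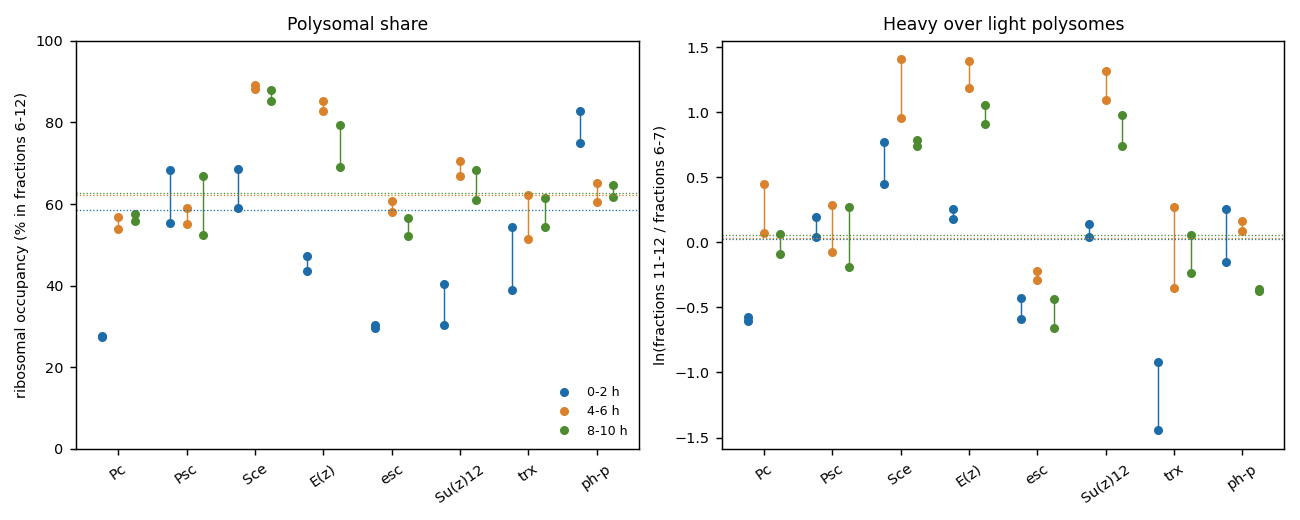
Ribosomal occupancy in percent (left) and natural log of the share in fractions 11-12 over the share in fractions 6-7 (right) for each mRNA on the x axis, with 1 point per untreated gradient, coloured by period, and a line joining the 2 gradients. Dotted lines are the medians of the probe sets above the median signal, with an occupancy of 58.6%, 62.1% and 62.6% at 0-2, 4-6 and 8-10 h; in the left panel Pc, E(z), esc, Su(z)12 and trx lie below the 0-2 h median in both gradients of 0-2 h.

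EDTA asks whether the sedimentation depends on ribosomes, since an mRNA freed from polysomes moves into the light fractions. The log2 signal in the pool of fractions 1-5 was compared between the EDTA gradient and the 2 untreated gradients of a period. As arrays are scaled to each other, a lower value under EDTA means a smaller part of the pool's RNA, not less mRNA. There was 1 EDTA array per period, so the tests take the spread from the untreated arrays alone and assume that the EDTA array varies like them; the values are those of 1 gradient, with no replicate of the treatment. In that gradient Sce, E(z) and Su(z)12 were higher in the pool than without EDTA at 4-6 h, and E(z), Su(z)12, esc and trx were lower at 0-2 h.

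At 4-6 h Sce had a log2 signal of 9.54 with EDTA, against 7.48 and 7.20 without EDTA, 4.58 times higher (log2 difference 2.20, SE 0.28, limma adjusted p = 0.00302). E(z) had 9.41 with EDTA, against 7.95 and 8.22 untreated (1.32, limma adjusted p = 0.015). Su(z)12 had 10.57 with EDTA, against 9.30 and 9.29 untreated (1.28, limma adjusted p = 0.0112). In these 3 mRNAs the EDTA array lay above both untreated ones by more than the 2 differed. With an untreated array of 4-6 h left out, Sce stayed called, Su(z)12 was not (adjusted p 0.0633 and 0.0508) and E(z) was not without array 1 (0.0904). Pc, Psc, esc and trx had differences between -0.44 and -0.26 and were not called.

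At 8-10 h Sce had 9.25 with EDTA, against 7.27 and 7.03 untreated (2.10, limma adjusted p = 0.00489). Su(z)12 had 9.53 with EDTA, against 8.70 and 8.66 untreated (0.86, limma adjusted p = 0.048, and 0.0671 to 0.0911 without any 1 untreated array). E(z) had 8.15 with EDTA, against 7.62 and 7.26 untreated, and was not called (0.71, limma adjusted p = 0.126).

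At 0-2 h the 4 called members lay on the other side. E(z) had 8.82 with EDTA, against 9.83 and 9.97 untreated (-1.07, limma adjusted p = 0.0481). esc had 10.02 with EDTA, against 10.97 and 11.00 untreated (-0.97, limma adjusted p = 0.0462). Su(z)12 had 9.28 with EDTA, against 10.46 and 10.30 untreated (-1.10, limma adjusted p = 0.0298). All 3 PRC2 mRNAs were thus about 1 log2 unit lower with EDTA. trx had 7.52 with EDTA, against 8.71 and 9.55 untreated (-1.61, limma adjusted p = 0.0316). Pc (9.20 with EDTA, against 10.00 and 9.77 untreated) and Psc (7.99 with EDTA, against 8.75 and 9.99 untreated) were lower too without passing the test. All 4 calls were lost without array 2 of 0-2 h (adjusted p 0.123 to 0.228) and without either array of 4-6 h (0.0557 to 0.0899), 3 were lost without array 1 of 0-2 h (0.0984 to 0.111), and those of E(z) and esc were lost with arrays centred on their median (0.0659 and 0.0639).

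The counts were 4 of 7 lower and none higher at 0-2 h, where 2.36% and 6.33% of all probe sets were, 3 of 7 higher and none lower at 4-6 h, where 12.9% and 3.49% were, and 2 of 7 higher and none lower at 8-10 h, where 12.6% and 3.52% were. The untreated pool also enters the Logit, so these differences and those of the Logit share arrays. The difference between the EDTA effects of 4-6 h and 0-2 h was 2.40 for E(z), 2.38 for Su(z)12 and 2.28 for Sce (limma adjusted p = 0.0801, 0.0801 and 0.0805), and none of the 7 members passed, where 0.00% of probe sets did in either direction (4 members at an unadjusted limma p below 0.05). The difference of 8-10 h minus 4-6 h passed for none of the 7 (0.00% of probe sets higher, 0.0193% lower; no member at an unadjusted limma p below 0.05). For 4-6 h minus 0-2 h, with an intensity trend and a robust prior, those 3 mRNAs passed (adjusted p 0.0433), as they did without either untreated array of 8-10 h (0.0474 to 0.0497).

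The heavy peaks of Sce, E(z) and Su(z)12 at 4-6 h were not seen in the EDTA gradient. With the 4 pools given equal weight, and untreated fractions averaged to the same pools, an even spread puts 25% in each. Every pool was scaled on its own array, so the amount of RNA left in a pool is not kept. The percentages are shares of scaled signal. They do not measure how much mRNA moved between pools, and the part of this scaling in the EDTA shares was not tested. Fractions 10-12 held 23.1% of Sce mRNA with EDTA, against 54.1% and 43.9% untreated. For E(z) these fractions held 27.3% with EDTA, against 54.0% and 51.8% untreated, and for Su(z)12 25.7% with EDTA, against 43.4% and 49.5% untreated. In each of the 3 the EDTA gradient lay below both untreated ones by more than the untreated gradients differed. In some of the other cases the share of signal in these fractions was larger with EDTA, and in some it was smaller. A larger share does not show that mRNA moved there. For Psc at 8-10 h fractions 10-12 held 41.0% with EDTA, against 22.4% and 32.5% untreated. At 0-2 h they held 29.2% of Pc mRNA with EDTA, against 12.0% and 12.1% untreated, and 27.0% of esc mRNA with EDTA, against 12.5% and 13.7% untreated. trx (28.8% with EDTA, against 15.5% and 9.09% untreated), Su(z)12 (28.8% with EDTA, against 22.3% and 18.1% untreated) and E(z) (28.8% with EDTA, against 25.6% and 23.4% untreated) were also higher there with EDTA at 0-2 h, values that were not tested. At 0-2 h the pool of fractions 1-5 held 23.2% of Pc mRNA with EDTA, against 54.1% and 54.6% untreated.

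**Figure D4:**
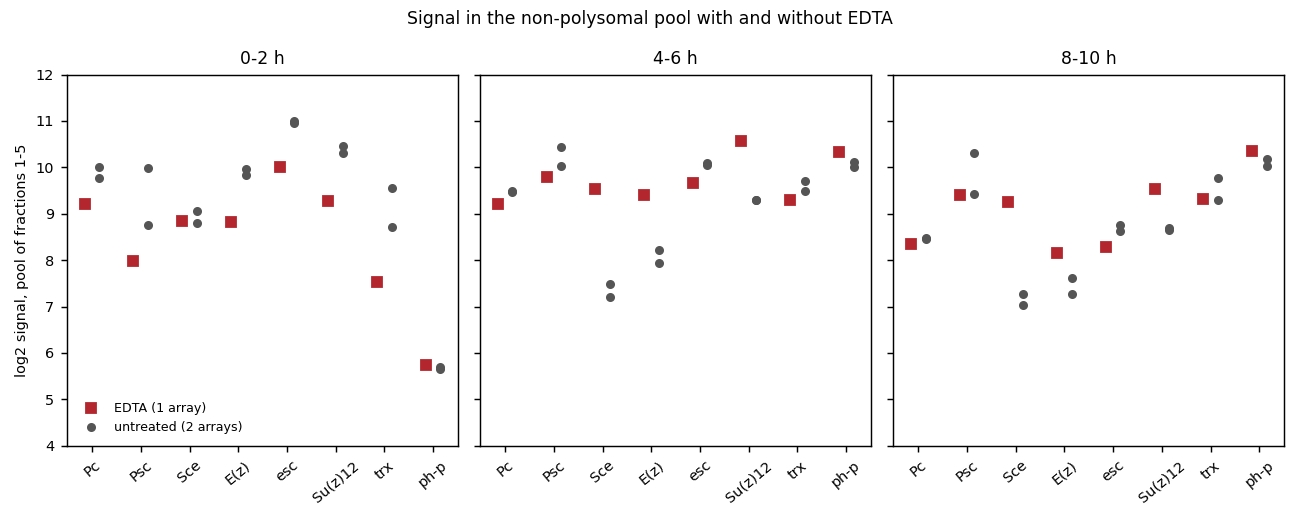
Log2 signal in the pool of fractions 1-5 (y axis) for each mRNA (x axis) at the 3 periods, with the EDTA array as a red square left of the 2 untreated arrays as grey circles. At 0-2 h the squares of E(z), esc, Su(z)12 and trx lie below the circles, and at 4-6 h those of Sce, E(z) and Su(z)12 lie above them.

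Genes related to the members, as partners, other members of the groups or targets, were read from 5 lists, described by counts without a test of the list. Of 13 other Polycomb group genes tested, 5 had a higher Logit at 4-6 h than at 0-2 h and 2 a lower one, where 26.3% and 19.7% of all probe sets were higher and lower. Those with the largest rise were phol, which encodes a DNA-binding protein that recruits Polycomb complexes (2.04, limma adjusted p = 1.89e-06), and Scm, a SAM domain protein that binds PRC1 (1.68, limma adjusted p = 2.94e-06). jing, a zinc finger gene, fell most (-1.39, limma adjusted p = 2.2e-05), with Jarid2, a PRC2 cofactor, at -0.68 (limma adjusted p = 0.00797). The median of this list was 0.18, below the 1.23 of the members.

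Over the 3 lists of trithorax-side genes, 12 of 26 had a lower Logit and 1 a higher one, with the lists unlike in their counts. Of 10 genes of the Brahma and other remodellers, which move nucleosomes with ATP, 6 had a lower Logit at 4-6 h and none a higher one (median -0.85). polybromo (-1.52, limma adjusted p = 9.49e-06) and the ATPase brm (-1.28, limma adjusted p = 7.65e-05) fell most. Of 6 other trithorax group genes 4 were lower and none higher, led by tna (-1.31, limma adjusted p = 9.24e-05) and Trl, the GAGA factor (-1.16, limma adjusted p = 5.41e-05). Among 10 genes of COMPASS complexes and histone methyltransferase partners 1 was higher, Ptip (0.73, limma adjusted p = 0.00673). In that list 2 were lower, trr (-0.93, limma adjusted p = 0.00262) and Rbbp5 (-0.54, limma adjusted p = 0.0204). These shares were near or below those over all probe sets, and the list median was -0.05. Of the 3 homeotic genes tested Antp was lower (-1.21, limma adjusted p = 5.43e-05). In unfractionated RNA of 0-2 h Antp had log2 signals of 4.61 and 4.02 and tna 5.26 and 5.07, where array medians ran from 4.55 to 5.13. The falls of Antp and tna are thus measured from a weak early signal, and a loss from polysomes cannot be read from them. jing (6.74 and 5.53) and Trl (6.93 and 5.81) were also low in that RNA at 0-2 h. Both had higher means later, 9.20 for jing at 4-6 h and 9.15 for Trl at 8-10 h. A loss from polysomes cannot be read from the falls of jing and Trl either. The difference between lists was not tested.

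In abundance, 9 of 10 remodeller genes rose between 0-2 and 4-6 h and none fell, where 25.9% and 24.6% of all probe sets did, led by kis (4.15, limma adjusted p = 0.00929) and Iswi (2.48, limma adjusted p = 0.00213). So did 4 of 6 other trithorax genes, with tna (4.50, limma adjusted p = 0.000148) and lolal (2.87, limma adjusted p = 0.0147) first. The 3 homeotic genes tested rose too, with Antp at 4.61 (limma adjusted p = 0.000227) and Scr at 3.02 (limma adjusted p = 0.00025). Of 8 homeotic genes listed only 4 had a probe set, and pb (means 4.18, 4.10 and 4.36) did not pass the signal filter. Antp, Dfd and Scr had low means at 0-2 h (4.31, 4.15 and 3.43). A homeotic gene that stays low is not tested, so their rise says little about the list. Of 10 COMPASS partners 6 rose, with Utx at 2.05 (limma adjusted p = 0.0125), and Mnn1 fell (-0.63, limma adjusted p = 0.0146). Of the 13 other Polycomb genes 2 rose, jing (3.06, limma adjusted p = 0.00204) and Caf1-55 (0.73, limma adjusted p = 0.0119), and 3 fell, among them escl, the paralogue of esc (-2.01, limma adjusted p = 0.000904), and Scm (-1.43, limma adjusted p = 0.00858), shares below those over all probe sets. Array 1 of 0-2 h was also the higher of the pair for kis (8.00 and 5.33), lolal (9.33 and 7.34), Utx (8.31 and 6.92), jing (6.74 and 5.53) and Iswi (9.07 and 8.08). The sizes of these rises thus depend on the array of 0-2 h. The pair was nearly level for tna (5.26 and 5.07) and Scr (3.43 and 3.44), and the part of this difference in the rises was not tested.

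**Figure D5:**
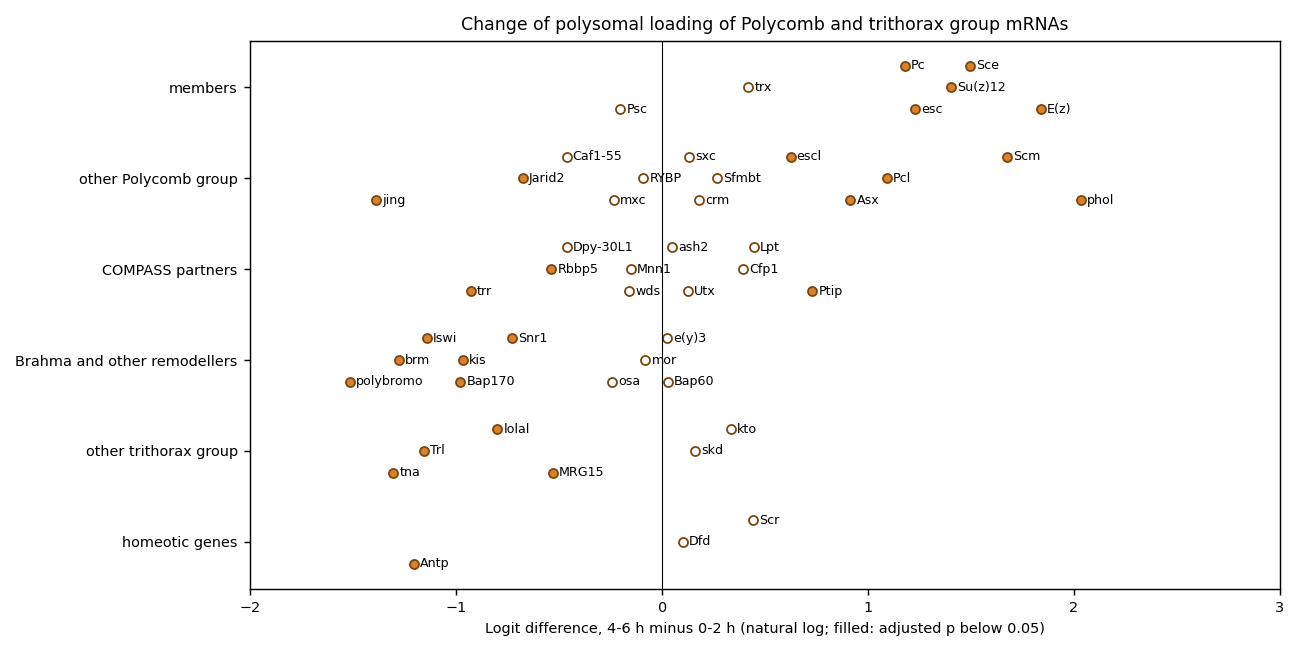
Logit difference of 4-6 h minus 0-2 h (x axis, natural log) for the members (top) and for each gene of the 5 lists (rows); filled points passed limma at an adjusted p below 0.05. Of the members 5 of 7 are filled and lie above 0, and of the remodellers 6 of 10 are filled and lie below 0.

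The gene whose profile over the 24 means of period and fraction was most like that of each member was found among 8006 genes by Pearson correlation of log2 signal, given as a description since all points share the same arrays. E(z) was most like Prim2, a DNA primase subunit (r = 0.966), esc most like Sse, the separase (0.942), and Su(z)12 most like Ing3 (0.959). Sce was most like CG15561 (0.969), Pc most like ebd2 (0.913) and trx most like shn (0.958). Psc had the lowest best match, osa (0.880), a trithorax group gene of the Brahma complex. Among the members themselves E(z) and Su(z)12 were the most alike (0.828), followed by Pc and esc (0.767), while trx and Sce had the lowest value (-0.334).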

How the data were processed

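Affymetrix Drosophila Genome 2.0 arrays were used, 1 per sample. The deposited values are log2 signals that the authors computed with RMA (background correction, quantile normalization between arrays and summary of probes into probe sets). Quantile normalization brings the probe values of arrays to a common distribution before the summary, so the amount of RNA in a fraction is not kept. After the summary the array medians ran from 4.55 to 5.13. Groups and replicate numbers came from sample titles, which name biological replicates. Of 18769 probe sets other than controls, 13647 had 1 gene symbol in the array annotation, 402 several and 4720 none; a probe set with several named no gene. Coordinates, sequences and protein lengths were not used here.

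Tests used limma 3.58.1 in R 4.3.3 with 1 shared spread over periods and no replicate block, as Benjamini-Hochberg adjusted p over the 10358 probe sets whose mean log2 signal in the untreated gradients of at least 1 period was in the top 50%. Abundance used 6 arrays, Logit and heavy over light values 6 gradients, and EDTA 9 arrays of fractions 1-5. Replicate numbers linked the unfractionated arrays: same-numbered arrays deviated together (r = 0.146, 0.249 and 0.577), so blocked values stand beside the abundance results they change. The text names every member, up to 2 genes in each direction of a list and comparison with the largest change past the threshold, and the gene most like each member. Members and lists were chosen with earlier results of these data known. Alternatives were other filters, priors, centring, fraction boundaries, pool weights, the block and leaving out each replicate.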

Additional observations from a re-analysis of the deposited data

How the results depend on the processing

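Of 1008 results of the 7 members under an alternative, 938 kept direction and side of the threshold, 44 were no longer past it, 25 came past it and 1 reversed, which was the abundance of Sce at 4-6 h minus 0-2 h (0.60, limma adjusted p = 0.0142, without replicate 2 of 0-2 h, and -0.66 without replicate 1); the causes were not tested. Leaving out each replicate, the number of members called was 1 to 5 in abundance at 4-6 h against 0-2 h, 3 to 4 at 8-10 h against 4-6 h and 3 to 6 at 8-10 h against 0-2 h. It was 5 to 6, 0 to 1 and 5 to 6 for the Logit in the same order, and 3 to 5, 0 to 0 and 2 to 4 for heavy over light polysomes. For EDTA it was 0 to 4 at 0-2 h, 1 to 3 at 4-6 h and 1 to 1 at 8-10 h, and 0 to 3 and 0 to 0 for the differences of the EDTA effect (4-6 h minus 0-2 h, 8-10 h minus 4-6 h). The number of calls over all probe sets also changed with the replicate left out, so these ranges are not a trait of the members. With arrays centred on their median, 2 members were called lower for EDTA at 0-2 h, where 1.43% of probe sets were. With an intensity trend and robust prior 3 were called higher for the difference of the EDTA effect at 4-6 h minus 0-2 h, where 0.309% of probe sets were. With the pool of fractions 1-5 counted once, 1 member at 0-2 h and 3 at 8-10 h were preferentially translated and 0 at 0-2 h untranslated. With fractions 6 and 7 as non-polysomal, 0 members at 4-6 h and 0 at 8-10 h were translated, and 4 at 4-6 h and 4 at 8-10 h untranslated. Both settings shift the Logit of all mRNAs, as given above. The replicate block changed the call of trx (2.35 at 4-6 h, 2.65 at 8-10 h, against 0-2 h) and Pc in abundance and no other call of a member. In the gradients the correlations between same-numbered samples were all negative for the Logit (-0.287 to -0.0414) and mixed in sign for heavy over light (-0.212 to 0.154). The highest of these was about the size of the lowest in unfractionated RNA (0.146), where all were positive. The block left the Logit calls of 4-6 h against 0-2 h at 2659 probe sets higher and 1975 lower, beside 2725 and 2036. Each member had 1 probe set, so no other probe set of a gene could be compared.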
